A study of Homo sapiens with 6 samples.

Results

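NEDD9 is a docking protein of the Cas family at focal adhesions, the sites where integrins tie the actin cytoskeleton to the matrix. Its counts were followed here with those of ENSG00000247925, a noncoding gene on the other strand of the NEDD9 locus, and of the adhesion partners BCAR1, PTK2, SRC and PXN. The 6 rows were taken by name, and PXN-AS1, the gene with exons opposite PXN, was added, which gave 7 of the 57209 rows of the tables. The members were chosen by the counts at the NEDD9 locus in the same contrast of guides, so all their differences between guides are descriptions and carry no test.

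The cells were MB157, a line established from a triple-negative breast cancer, in a form that carries the Cas9 nuclease and was kept in puromycin. One group received a control sgRNA and the other a SOX9 KO sgRNA, for 4 days, and in both the top 50% of sgRNA-expressing cells were collected by flow sorting. The series text describes the cells as stably expressing SOX9, while the sample titles name Cas9. Each group held 3 libraries, called technical replicates in the labels, so errors and p-values measure the spread between libraries only. The contrast asks which transcripts differ once SOX9, a transcription factor with an HMG box, is targeted.

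Cas proteins have no enzymatic activity. When integrins bind matrix, the kinases FAK (encoded by PTK2) and SRC phosphorylate the Cas proteins NEDD9 and p130Cas (encoded by BCAR1), which then bind Crk adaptors and, through the exchange factor DOCK1, switch on the GTPase RAC1. Paxillin (encoded by PXN) is a scaffold that brings FAK and vinculin to the adhesion. NEDD9 is also known as an activator of the mitotic kinase Aurora A and for its links to invasion and metastasis in breast cancer and melanoma.

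NEDD9 and ENSG00000247925 share a short stretch of exon. NEDD9 (ENSG00000111859) lies on the minus strand of chromosome 6 from 11183531 to 11382581 (GRCh37), with 17 merged exons of 10359 bp in all. ENSG00000247925 lies on the plus strand from 11173685 to 11259332 and has 5 exons of 704 bp in all. Its exon 2, from 11185399 to 11185451, falls wholly inside the NEDD9 exon at the 3′ end of that gene (11183531 to 11185904). Its exon 1 (122 bp) lies outside the NEDD9 span, and exons 3 (75 bp), 4 (176 bp) and 5 (278 bp) lie in NEDD9 introns. The shared 53 bp are 7.53% of the exon length of ENSG00000247925.

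**Figure D1:**
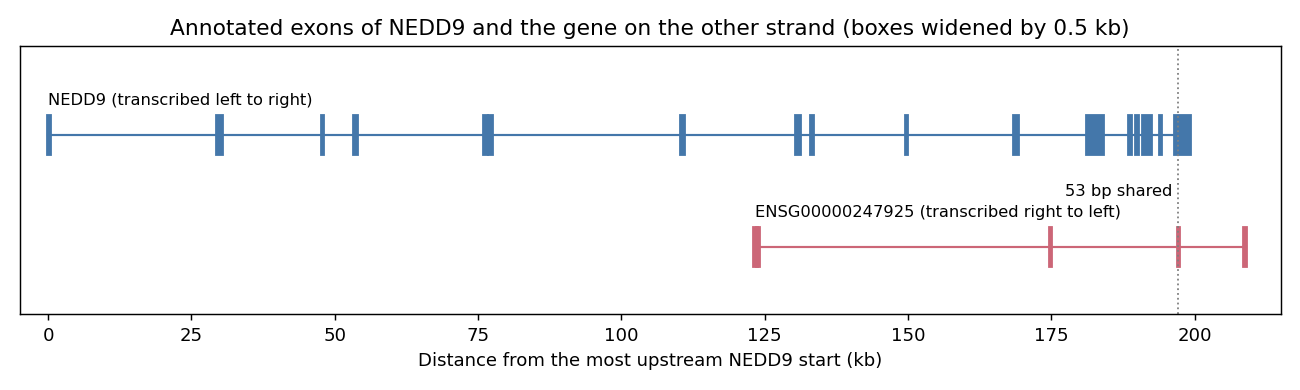
Exons of NEDD9 and of ENSG00000247925 as annotated for the counts, by distance in kb from the most upstream NEDD9 start. Boxes are exons, each drawn 0.5 kb wider than it is, lines are introns, and the dotted line marks the 53 bp that both genes hold as exon, near the 3′ end of NEDD9.

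The shared stretch is shown because it is the only exon sequence where a fragment can be assigned to one or the other gene by strand alone. In GENCODE 29 (GRCh38) it lies at chr6:11185166-11185218, within the 704-base transcript of ENSG00000247925. It was found inside the coding part of 3 NEDD9 transcripts, 1 base from the end of that part. Of 16 NEDD9 transcripts, 4 hold it. Capitals mark exon 2, with 30 bases of the transcript on each side, and the second line is the NEDD9 strand of exon 2.
ENSG00000247925: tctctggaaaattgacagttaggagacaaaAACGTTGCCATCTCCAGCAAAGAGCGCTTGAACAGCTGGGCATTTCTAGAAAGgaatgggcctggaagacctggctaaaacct
NEDD9: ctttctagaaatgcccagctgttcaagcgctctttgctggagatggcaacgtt

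The strand from which a row's counts came bears on every value below. Per the file headers, fragments of this stranded kit were counted with strand setting 1, and this setting may be the reverse of the kit's read orientation. Of 29 adhesion genes outside the members that had a row with exon overlap on the other strand, 28 had more CPM (counts scaled to a common library size) per kb on that row than on their own. ITGB1, which encodes the integrin β1 subunit, was the exception, with 1.11 CPM per kb against 0.68 for ITGB1-DT. Neither of these rows passed the count filter, and ITGB1-DT had 0, 0 and 0 counts in control and 0, 0 and 5 in SOX9 sgRNA libraries. Among epithelial markers, KRT7 had 217 counts over the 6 libraries against 6423 on KRT7-AS, and CDH1 had 169 against 6544 on the row opposite it. KRT8 and KRT18, both epithelial markers and opposite each other, had 2797 and 194. Were the setting reversed, a row would hold fragments from the strand opposite the gene it is named for, also for rows with no partner such as BCAR1, PTK2 and SRC, and for the marker genes. Which strand the counts come from was not tested. Gene names below therefore name rows of the tables. Nor can the rows of a pair be exchanged, since 651 bp of the exons of ENSG00000247925 are not NEDD9 exon. Of these exons, 3 (75 bp), 4 (176 bp) and 5 (278 bp) lie in NEDD9 introns. Were the setting reversed, the ENSG00000247925 row and its difference between guides would stem from the NEDD9 strand, NEDD9 introns included, which was not tested.

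**Figure D2:**
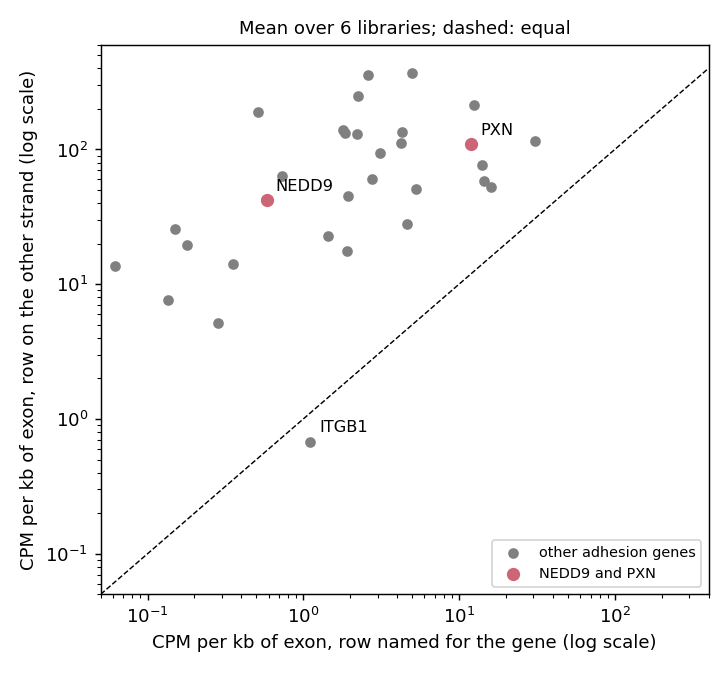
CPM per kb of exon, as the mean over 6 libraries, for the row named for an adhesion gene (x axis, log scale) and for the row with exon overlap on the other strand (y axis, log scale). NEDD9 and PXN are red, the other adhesion genes grey and the dashed line marks equal density, with ITGB1 as the only gene under it.

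Libraries held 776125 to 1018854 counts in all. SOX9, the targeted gene, had 38, 52 and 44 counts with the control sgRNA and 37, 39 and 60 with the SOX9 sgRNA (log2 change -0.21 ± 0.26 SE, with edgeR giving an adjusted p of 0.70), so its counts do not check the labels. Epithelial markers summed to 1011 to 1105 CPM in control and 842 to 1058 CPM in SOX9 sgRNA libraries, and 2 of the 6, KRT19 and KRT7, were lower, with log2 fold changes of -0.73 (edgeR adjusted p = 1.83e-05) and -0.92 (0.0183). Basal breast markers summed to 144 to 194 CPM in control and 165 to 189 CPM in SOX9 sgRNA libraries, with 0 past the threshold. ESR1 had 12 and PGR 26 counts over the 6 libraries, while ERBB2 had 1021. Fibroblast markers summed to at most 10.8 CPM and endothelial markers to at most 1.44 CPM. The 5 immune markers summed to 24.1 to 41.7 CPM in control and 47.7 to 70.2 CPM in SOX9 sgRNA libraries, with 0 of them past the threshold. CD68 had 149 counts over the 6 libraries, PTPRC had 1, and CD3E and LYZ were at 0. The part of these markers in the results below was not tested.

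ENSG00000247925 held few counts after the SOX9 sgRNA, while the row named for NEDD9 held few in both groups. Control libraries 1 to 3 had 43, 44 and 32 counts of ENSG00000247925, and SOX9 sgRNA libraries 1 to 3 had 3, 4 and 9. All control libraries lay above all SOX9 sgRNA libraries. The level went from 53.1 ± 6.19 to 5.86 ± 2.64 CPM (SD, n = 3 each). The sums of 119 and 16 counts give a level 8.75-fold lower (exact 95% interval 5.17 to 15.8, counting error only). The fit over all genes gave a log2 fold change of -2.71 (SE 0.41), rank 14 among the falls of 7959 rows, which is part of why the locus was chosen. The row passed the count filter through the control libraries alone, since no SOX9 sgRNA library reached 10 counts. In these bulk libraries, fewer cells with a transcript and less of it per cell cannot be told apart.

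The NEDD9 row had 4, 5 and 4 counts in control libraries and 5, 3 and 9 in SOX9 sgRNA libraries. The groups overlapped, and with 13 counts against 17 the row did not pass the filter. Its level was 5.81 ± 0.507 CPM in control and 6.23 ± 2.44 CPM in SOX9 sgRNA libraries. The ratio of SOX9 sgRNA to control was 1.11, with an exact 95% interval from 0.508 to 2.49, so a change of up to about that size in either direction was not detectable at this depth. Without SOX9 sgRNA library 3, which held 9 of the 17 counts, the log2 ratio turned from 0.15 to -0.23.

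Taken as a pair, the strands of the locus shared counts unequally in the control group. ENSG00000247925 held 119 of the 132 control counts of the pair, or 90.2% (Wilson 95% interval 83.9% to 94.2%, which covers counting error only, as do the other intervals here). With the SOX9 sgRNA it held 16 of 33, or 48.5% (32.5% to 64.8%). Single libraries ran from 88.9% to 91.5% in control and from 37.5% to 57.1% in SOX9 sgRNA libraries. These shares, and the ratio that follows, hold for the rows as counted and would name other transcripts were the strand setting reversed. Per kb of exon, the CPM of ENSG00000247925 was 134 times that of NEDD9 in control and 13.8 times in SOX9 sgRNA libraries.

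The second Cas gene, BCAR1, which encodes p130Cas, had low counts, with 2 of 3 SOX9 sgRNA libraries above every control library. BCAR1 (ENSG00000050820, chromosome 16, 75262928 to 75301951, minus strand) had 12, 9 and 8 counts in control and 22, 22 and 15 in SOX9 sgRNA libraries. The counts did not overlap, but after scaling SOX9 sgRNA library 3 (14.6 CPM) fell below control library 1 (16.0 CPM). The level was 13.0 ± 2.63 CPM in control and 23.2 ± 7.55 CPM in SOX9 sgRNA libraries, a log2 fold change of 0.72 (SE 0.45) that was not past the threshold. Only 1 control library reached 10 counts, against all 3 SOX9 sgRNA libraries. The remaining Cas genes, EFS and CASS4, had 1 count each over the 6 libraries.

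PTK2 and SRC, the kinases that phosphorylate Cas proteins, varied more among SOX9 sgRNA libraries than between the groups. PTK2 (ENSG00000169398, chromosome 8, 141667999 to 142012315, minus strand) had 27, 20 and 18 counts in control and 33, 9 and 19 in SOX9 sgRNA libraries. The highest and the lowest library were both of the SOX9 sgRNA group, at 39.7 and 11.7 CPM. Its log2 fold change was -0.29 (SE 0.38). It was -0.83 on leaving out SOX9 sgRNA library 1 and -0.03 on leaving out library 2 of that group.

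SRC (ENSG00000197122, chromosome 20, 35973088 to 36034453, plus strand) had 10, 12 and 12 control counts and 5, 14 and 14 SOX9 sgRNA counts. The groups overlapped, with SOX9 sgRNA library 1 lowest at 6.02 CPM and SOX9 sgRNA library 2 highest at 18.2 CPM. The log2 fold change was -0.24 (SE 0.52), and ran from -0.52 to 0.04 when 1 library was left out, with 0.04 without SOX9 sgRNA library 1.

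PXN, which encodes paxillin, had the most counts of the protein-coding members. PXN (ENSG00000089159, chromosome 12, 120648250 to 120703574, minus strand) had 82, 68 and 79 counts in control and 55, 57 and 89 in SOX9 sgRNA libraries. Its level was 103 ± 14.7 CPM in control and 75.7 ± 10.3 CPM in SOX9 sgRNA libraries. SOX9 sgRNA library 3 (86.6 CPM) just passed control library 2 (86.3 CPM), so the groups overlapped. The log2 fold change was -0.42 (SE 0.21), not past the threshold.

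PXN-AS1 (ENSG00000255857, chromosome 12, 120639094 to 120650941, plus strand) overlaps PXN exons over 862 bp, or 37.0% of its exon length. It had 210, 212 and 182 counts in control and 193, 192 and 238 in SOX9 sgRNA libraries. The level was 270 ± 9.40 CPM in control and 238 ± 10.1 CPM in SOX9 sgRNA libraries, and the scaled values did not overlap. The log2 fold change was -0.19 (SE 0.13), and 0.00 when libraries were scaled by their totals alone, which moved the median of all rows from 0.01 to 0.18. PXN-AS1 held 72.5% of the 833 control counts of its pair with PXN (Wilson 95% interval 69.4% to 75.4%) and 75.6% of the 824 SOX9 sgRNA counts (72.6% to 78.4%).

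**Figure D3:**
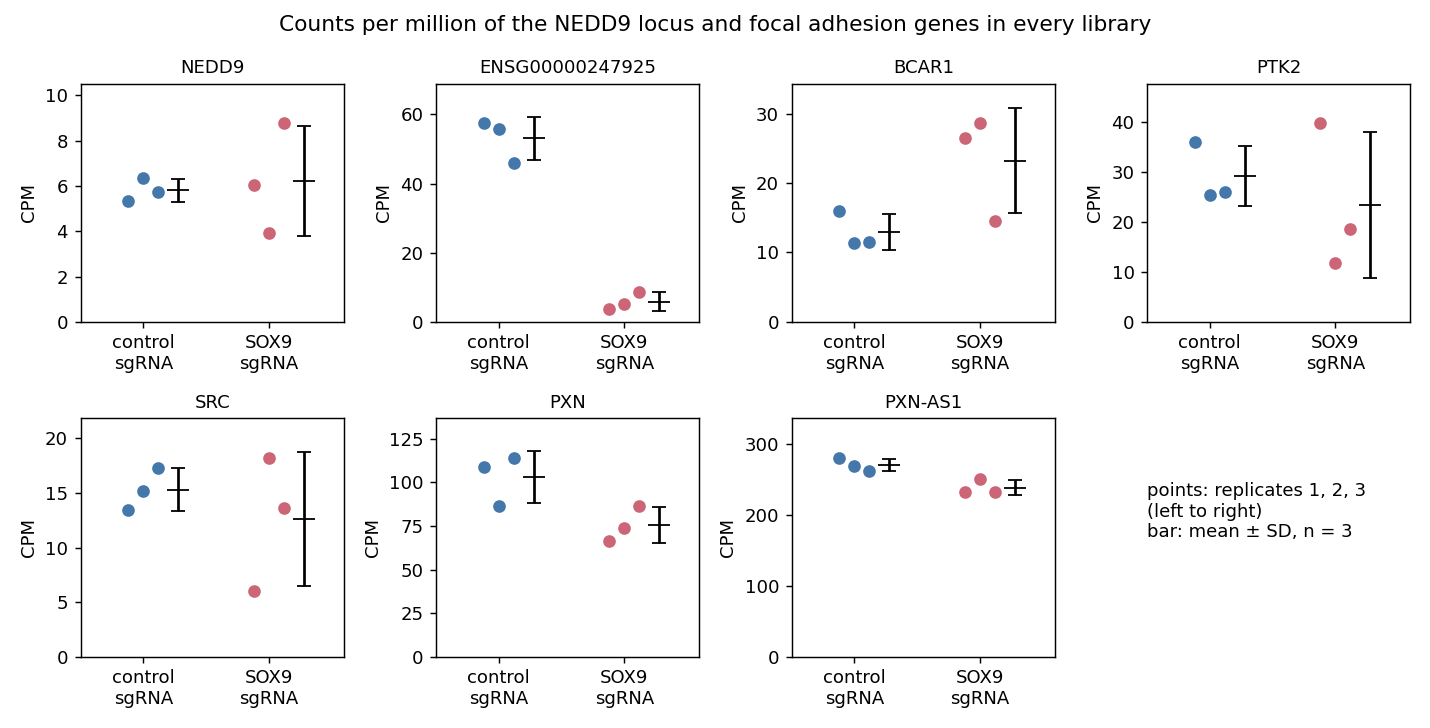
CPM of each member in each library, with the control sgRNA in blue and the SOX9 sgRNA in red. Points are replicates 1 to 3 from left to right, bars are mean ± SD (n = 3), and each panel has its own axis from 0. ENSG00000247925 lies between 46.0 and 57.4 CPM in control and between 3.61 and 8.76 CPM in SOX9 sgRNA libraries, while the groups overlap for NEDD9, BCAR1, PTK2, SRC and PXN.

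Of the 7 rows, 6 passed the filter and 1, ENSG00000247925, was past the adjusted p threshold. The background share of rows past it was 9.01%, or 6.02% lower and 2.99% higher. Scaled values of the groups did not overlap for 2 of the 6, ENSG00000247925 and PXN-AS1, against 24.5% of all rows. Nothing is read from either count, since the contrast chose the members.

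As counted with strand setting 1, the rows named for noncoding genes had more CPM per kb of exon than those named for protein-coding genes in control libraries. This is an order of rows and not of the genes' expression, since the strand of origin is not known. It was PXN-AS1 (116 ± 4.03), ENSG00000247925 (75.4 ± 8.79), PXN (13.8 ± 1.97), SRC (2.34 ± 0.299), PTK2 (2.12 ± 0.437), BCAR1 (1.56 ± 0.316) and NEDD9 (0.561 ± 0.0490), all SD with n = 3. SRC and PTK2 differed by less than their SDs, as neighbours in that order. In SOX9 sgRNA libraries PXN-AS1 stood at 102 ± 4.33, PXN at 10.2 ± 1.38 and ENSG00000247925 at 8.32 ± 3.75, so that the latter fell below PXN by less than its SD. BCAR1 (2.79 ± 0.905), SRC (1.93 ± 0.942) and PTK2 (1.70 ± 1.06) then overlapped within their SDs, above NEDD9 (0.601 ± 0.235).

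Few rows named for other genes of the pathway were past the threshold. Lists of adhesion genes by role, 6 in all, held 79 genes besides the members, of which 39 passed the filter. Of these, 1 was lower and 0 were higher, so that 2.56% were called against 9.01% of all rows. At an unadjusted p under 0.05 there were 3, or 7.69%, against 20.5% of all rows, and with library totals 9 of 39, against 1914 of 7959. DESeq2 also called 1. The median log2 fold change was 0.19 against 0.01 over all rows, with 24 values above 0 and 15 below. These rows held fewer counts than the background. A higher count minimum, set after seeing the data, kept 12 of them, against 3819 of the 7959 rows. Changes are harder to call at low counts, so the lower shares are not read as a property of the pathway.

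The adaptors and exchange factors that bind Cas proteins held 10 tested genes of 16, with 0 calls and a median log2 fold change of 0.10. Among them, DOCK1 had 23, 27 and 21 counts in control and 29, 22 and 51 in SOX9 sgRNA libraries. The adaptor CRKL, named for its role and outside the naming rule, stood at 24.6 ± 11.1 against 23.1 ± 12.9 CPM. Kinases and phosphatases besides the members had 5 tested of 12 and 0 calls. The integrin-linked kinase gene ILK had a log2 fold change of -0.13 (SE 0.20). Scaffolds and actin linkers had 18 tested of 34, with 1 call, which was lower. The integrins had 2 tested of 9 and the mitotic and turnover partners of NEDD9 4 of 6, with 0 calls in both. AURKA, which encodes Aurora A and was named for its role, had 4, 6 and 4 against 11, 12 and 14 counts. AURKA passed the count filter through the SOX9 sgRNA libraries alone, since no control library reached 10 counts, so nothing is read from its groups not overlapping. Its log2 change of 0.93 ± 0.64 (SE) had an edgeR adjusted p of 0.309.

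Among rows on the other strand of these genes, 25 passed the filter, and 4 were lower and 1 higher. The 5 calls are 20% of them, against 11.3% of all rows with an exon on the other strand, where 7.86% were lower. Their median log2 fold change was 0.10, and they ran from -1.02 to 1.10. When library totals replaced the TMM factors, 8 were higher and 3 lower, so the balance of directions rests on the scaling.

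The largest of these falls lay opposite ITGA6, which encodes the α6 integrin subunit that binds laminin. ENSG00000226963 (chromosome 2, 173292502 to 173293331, minus strand) had 85, 85 and 65 counts in control and 33, 47 and 53 in SOX9 sgRNA libraries, so the groups did not overlap. It fell by 1.02 ± 0.23 (SE) on the log2 scale, at an edgeR adjusted p of 0.000549. ITGA6's own row gave -0.42 (SE 0.57, edgeR adjusted p = 0.691) at 14.3 ± 4.94 against 9.86 ± 5.22 CPM.

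MFSD12, a protein-coding gene opposite FZR1 over 70 bp, fell by 0.58 (SE 0.095, edgeR adjusted p = 3.06e-06), from 703 ± 33.9 to 470 ± 50.1 CPM. FZR1 encodes an activator of the anaphase-promoting complex, and its own row had the other sign at 0.84 (SE 0.37, edgeR adjusted p = 0.117). TAF10, a protein-coding gene opposite ILK over 2376 bp that encodes a subunit of the transcription factor TFIID, fell by 0.30 (SE 0.089, edgeR adjusted p = 0.0197). Its call was lost with library totals (-0.12) and on leaving out control library 2 (-0.30), control library 3 (-0.25) or SOX9 sgRNA library 1 (-0.27).

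The single rise was ARHGEF7-AS2, opposite ARHGEF7, which encodes the exchange factor β-PIX. It had 11, 16 and 11 counts in control and 24, 45 and 32 in SOX9 sgRNA libraries, or 1.10 ± 0.37 (SE) on the log2 scale at an edgeR adjusted p of 0.0248. The call was lost with no filter on low counts (1.07) and on leaving out control library 1 (1.00), control library 3 (1.05) or SOX9 sgRNA library 2 (0.74). ARHGEF7's own row gave -0.05 (SE 0.47, edgeR adjusted p = 0.971).

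**Figure D4:**
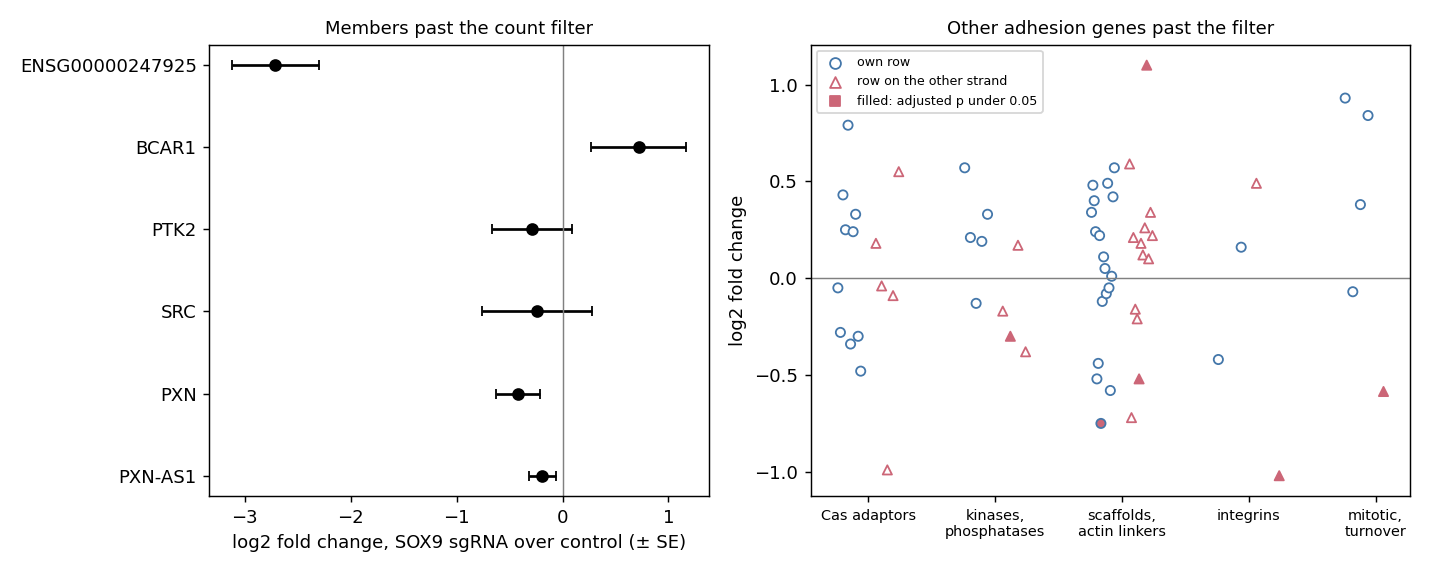
Log2 fold change of SOX9 sgRNA over control. The left panel gives the 6 members past the filter with SE bars, where ENSG00000247925 stands at -2.71 and the others between -0.42 and 0.72. The right panel gives the other adhesion genes by role, with circles for rows named for the gene, triangles for rows on the other strand and filled symbols for an edgeR adjusted p under 0.05.

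Other genes around the NEDD9 locus had few counts. Of 25 rows wholly within 500 kb of the NEDD9 span, 11 had 0 counts in every library and 2 passed the filter. ERVFRD-1, which encodes the fusion protein syncytin-2, had 35, 32 and 20 counts in control and 27, 23 and 37 in SOX9 sgRNA libraries (log2 fold change -0.22, SE 0.31, edgeR adjusted p = 0.743). MAK, a kinase gene of ciliated and germ cells, had 16, 23 and 10 against 15, 22 and 23 counts (0.07, SE 0.39, edgeR adjusted p = 0.949). Groups overlapped for both.

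The rows most like ENSG00000247925 over the 6 libraries were S100A13, TBPL1, SCD, ENSG00000272030 and ENSG00000228620. Likeness was the Euclidean distance of log2 CPM after each row was centred on its mean, and distances ran from 0.852 to 1.28 against a median of 3.58 over 4337 rows. ENSG00000247925 was chosen in part for its fall in these same libraries. Rows near it had to show a like fall and most rows had to lie far away, so nothing is read from either. S100A13, an EF-hand gene of the S100 family, went from 1904 ± 174 to 224 ± 14.5 CPM and SCD, which encodes a fatty acid desaturase, from 94.8 ± 14.3 to 18.3 ± 1.33 CPM. TBPL1 went from 65.6 to 11.3 CPM. ENSG00000272030 and S100A13 both lie opposite S100A1 and CHTOP, while ENSG00000228620, opposite KCNJ4, went from 55.3 ± 6.32 to 12.8 ± 1.59 CPM. The rows most like NEDD9 were ODAD3, OVOL3, RGP1, DOCK1 and MLX, at distances of 0.138 to 0.256 against a median of 0.892, with NEDD9 at 3 to 9 counts a library.

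Promoter windows were searched for the letters that SOX proteins are known to bind. The table of RefSeq windows (GRCh38.p14, 300 bases each, from 250 before to 50 after a start) held 11 windows for NEDD9, BCAR1, PXN and PXN-AS1. It held none for PTK2 and SRC, and ENSG00000247925 was not looked up, so no match below speaks for its start. The letters ACAAAG, on either strand, were in all 3 NEDD9 windows, of which 2 overlap and hold the same match, and in that of PXN-AS1, which held them at 2 places, and in none of the 5 BCAR1 and 2 PXN windows. Of all 35116 windows, 16.1% hold these letters. A second search, for ACAAT on either strand, found it in none of the 11, against 27.4% of all windows. A match of this length is a description and not a binding site. The 250 bases before the inner NEDD9 start (chr6:11232669-11232918, GRCh38.p14, minus strand) are shown because this window lies within the NEDD9 span, with the match, here on the other strand, in capitals.
NEDD9 inner start: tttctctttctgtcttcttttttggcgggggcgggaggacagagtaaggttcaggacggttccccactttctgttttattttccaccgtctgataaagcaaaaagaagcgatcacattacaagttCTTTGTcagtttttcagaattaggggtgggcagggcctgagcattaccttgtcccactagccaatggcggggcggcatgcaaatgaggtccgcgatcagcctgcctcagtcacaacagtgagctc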

How the data were processed

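Per the labels' protocols, RNeasy columns gave the RNA and a SMARTer stranded Pico kit the libraries. The counts deposited by the authors are whole numbers per gene without normalization, 1 table per library. The submitters' processing notes name STAR 2.7.10a, featureCounts (Subread 1.6.2) and GRCh37. Per the file headers, fragments were counted over exons of Ensembl release 75 genes, with strand setting 1 and with a fragment allowed to count for every gene it overlaps. No member shares exon sequence with another gene on its own strand.

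Symbols came from a table of identifiers, with 38994 of 57209 rows matched to a symbol, and biotypes and the shared exon from GENCODE 29. Exon overlaps were found with bedtools 2.31.1. The test was edgeR 4.0.16 under R 4.3.3, with filterByExpr at its defaults (minimum count 10), TMM factors and the robust quasi-likelihood test, with Benjamini-Hochberg adjustment over 7959 rows and a threshold of 0.05. Fold changes carry a prior count of 2, and SEs are the fold change at edgeR's default prior count divided by the root of the F statistic. The log2 ratio of NEDD9, whose row did not pass the filter, is of summed counts over scaled library totals. CPM is relative to the TMM-scaled total over tested rows, and likeness used log2 of CPM plus 2. DESeq2 1.42.0, other scalings and filters, a replicate block and leaving out each library were alternatives. The procedure was tested on simulated counts.

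Between libraries of one group, chi-square per degree of freedom was 1.97 to 2.44, above that of counting alone. Members and lists were chosen with earlier results of these data known. Named genes are the members with the rows opposite them, up to 3 rows of each list past the threshold, tested rows within 500 kb of NEDD9, and the 5 rows most like ENSG00000247925 and NEDD9 among rows averaging 5 or more in log2 CPM. Exact and Wilson intervals cover counting error only and are narrower than the spread between libraries allows. The source of that spread was not tested, and no molecular identifiers of fragments were used here. Some genes that the naming rule takes, and their values, are not reported here. Protein sequences were not used here.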

Additional observations from a re-analysis of the deposited data

How the results depend on the processing

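ENSG00000247925 stood at -3.11 at edgeR's default prior count, -3.16 by DESeq2 and -3.00 to -2.53 when 1 library was left out. NEDD9 gave -0.23 to 0.36 with 1 library left out, below 0 only without SOX9 sgRNA library 3. PTK2 ran from -0.83 to -0.03, BCAR1 from 0.56 to 0.95 and PXN from -0.55 to -0.35 in the same fits. Calls of rows named for other adhesion genes numbered 1 in the main test and 2 with library totals, and 1 in each fit without a library. Calls of rows opposite them numbered 5, 11 with library totals and 4 to 6 without a library. Over all rows 717 were called, 525 to 637 without a library and 874 with library totals, where 625 were higher and 249 lower against 238 and 479. The planned stricter filter kept 8266 rows, more than the default, so a minimum of 30 counts in 3 libraries was added after seeing the data, which called 620 of 3819 rows. With the replicate number as a block 574 rows were called, ENSG00000247925 stood at -2.72 and the adhesion counts stayed at 1 and 5. Deviations of libraries with the same number correlated at 0.017, 0.016 and -0.038, so the numbers do not pair them. For NEDD9 no stricter filter or block gave a value, since its row did not pass. At 3 to 33 counts a library, small changes of NEDD9, BCAR1, PTK2 and SRC were not detectable.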
